A study of Mus musculus with 22 samples.

Results

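Cytosolic ribosomal protein genes encode the proteins that, with the ribosomal RNAs, build the large and the small subunit of the ribosome. They were taken by symbol, as genes named Rpl or Rps with a number and no letter other than a or x, the 3 stalk genes Rplp0, Rplp1 and Rplp2, and Rpsa, with pseudogene names left out. This gave 76 of the 25471 genes listed, 46 of the large and 30 of the small subunit, all protein coding and spread over 19 chromosomes with 4 on the X. RNA had been extracted from a segment taken at mid-length of the ulna, a bone of the forelimb, in 11 mice. In each mouse the right limb had been loaded mechanically and the left had not, so that 22 libraries fell into CKO loaded (n = 4), CKO non-loaded (n = 4), WT loaded (n = 7) and WT non-loaded (n = 7). CKO mice carry a conditional knockout of Tlr4, which encodes the innate immune receptor that senses lipopolysaccharide, and WT mice are wild type; the series title places the receptor's studied role in osteoblasts, while the Cre line, the loading protocol, strain, age and sex are unknown here.

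Ribosomal protein genes are transcribed together and at high levels in nearly every cell, since each ribosome holds these proteins in fixed proportions. Many of their mRNAs start with a C followed by a run of pyrimidines, the 5′ terminal oligopyrimidine motif, through which mTOR and the RNA-binding protein LARP1 set their translation. In a piece of bone the RNA also comes from marrow, whose blood-forming cells divide and make protein, and from attached skeletal muscle, which has a ribosomal protein of its own, RPL3L, in place of RPL3.

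The start sites of members on which the results below turn are printed to show this motif. Each is a window of 30 bases around a start annotated by RefSeq on GRCm38.p6, with 15 bases on each side, read 5′ to 3′ on the gene's strand. Capitals mark a run of at least 6 C or T that begins with C and touches the 5 bases before or after the start.
Rps6 (chr4:86857353-86857382, minus strand): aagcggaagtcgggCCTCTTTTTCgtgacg
Rps9 (chr7:3704026-3704055, plus strand): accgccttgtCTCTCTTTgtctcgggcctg
Rps10 (chr17:27635230-27635259, minus strand): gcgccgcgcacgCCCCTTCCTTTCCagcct
Rplp0 (chr5:115559452-115559481, plus strand): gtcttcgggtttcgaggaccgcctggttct
Rpl22 (chr4:152325711-152325740, plus strand): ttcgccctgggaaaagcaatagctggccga
The first 3 belong to members with steep relations to marrow content and Rplp0 to the most abundant member by CPM. Rpl22, shown at 1 of its annotated starts, was the only member called lower with marrow content over 22 libraries. Of the 76 members, 56 had a start in the RefSeq table, and 29 of these (51.8%) held such a run at a start, against 4814 of 26969 other genes (17.9%) and 15.6% of all promoters in the table. The printed windows are a selection. Of the 45 members with a start that were called higher with marrow content below, 25 held a run, as did 4 of the other 11. Rps12 and Rpl36a, also steep with slopes of 0.37 and 0.34, had no run at their listed start. Whether the run goes with the relation to marrow was not tested. The search read the gene's strand only, and a window without the run says only that these letters are absent at that annotated start. Rpl3 had no entry in the table.

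The targeted gene did not part the genotypes: in CPM, counts relative to the library total after TMM scaling, Tlr4 lay between 24.9 and 33.8 in CKO and between 24.9 and 42.2 in WT bones, and a gene-level count checks neither a deleted exon nor a deletion in a few cell types. Ltbp2, chosen after its values were seen, lay at 205 CPM or more in 7 of 8 CKO libraries and at 73.5 CPM or less in 13 of 14 WT libraries. The library labelled CKO loaded 688 had 38.4 CPM and the library labelled WT loaded 686 had 380 CPM. Whether these libraries were exchanged was not tested; if they were, the limb differences of 686 and 688 would compare different mice. An exchange would bear on every comparison that uses the loaded libraries. Both mice were kept under their labels, and values without them are given for loading in CKO and for the relation to marrow content. In the other comparisons no member was called without them, and their medians over the members are not given here. Markers of osteoblasts (12 genes, 2877 to 35231 CPM summed) and osteocytes (8 genes, 528 to 1468 CPM summed), the cells of bone, were present in all 22 libraries.

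The members took 1.18% to 2.25% of all gene counts of a library, from totals of 21999891 to 42833729 counts. Their share averaged 1.39 ± 0.155% in CKO loaded (SD, n = 4) and 1.70 ± 0.413% in CKO non-loaded (n = 4) bones, and 1.49 ± 0.223% in WT loaded (n = 7) and 1.51 ± 0.272% in WT non-loaded (n = 7) bones. The 4 groups overlapped. The highest shares stood in the CKO non-loaded bone of mouse 691 (2.25%), the WT non-loaded bone of mouse 699 (2.07%) and the WT loaded bone of mouse 694 (1.92%), and no other library passed 1.68%. Counts are relative, and in such bulk tissue fewer cells of a type and less RNA per cell cannot be told apart.

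**Figure D1:**
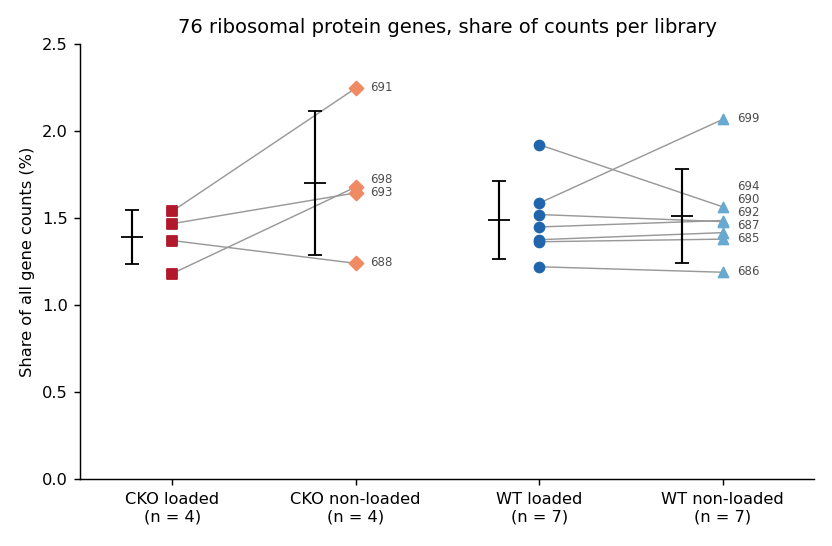
Share of all gene counts taken by the 76 ribosomal protein genes, in percent, for each library by group. Lines join the limbs of a mouse, numbers name the mice beside their non-loaded limb, and black bars give the mean ± SD; the bones of mice 691 (CKO non-loaded), 699 (WT non-loaded) and 694 (WT loaded) lie above all others.

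Levels differed between members. The mean over the 22 libraries ran from 34.4 CPM for Rpl27 to 620 CPM for Rplp0, the scaffold of the acidic stalk that recruits elongation factors. Divided by the length of the shortest principal transcript in GENCODE M21, the median member stood at 245 CPM per kb, and 66 of 76 lay within 2-fold of it. The highest per kb were Rplp1, another stalk protein, at 725 ± 67.1 CPM per kb (SD, 22 libraries), Rps29 at 523 ± 86.8 and Rps2 at 520 ± 52.0. The lowest were Rpl27a at 79.8 ± 11.2, Rpl27 at 56.0 ± 8.76 and Rps20 at 45.0 ± 4.76 CPM per kb, the last with an annotated transcript of 3706 bases.

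Processed pseudogenes bear on some of these levels, since reads of near-identical copies are divided between them by estimate. For 45 members the tables also list 109 genes named as their pseudogenes. These copies held over 10% of the summed counts for 4 members: Rpl27 (70.1%), Rps6 (31.1%), Rpl31 (28.2%) and Rps23 (19.4%). The low level of Rpl27 is therefore uncertain, and values of these 4 members may be too low.

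The members moved together from library to library. The SD of a member's log2 CPM over the 22 libraries had a median of 0.175 and was highest for Rpl3, at 0.27, and among the lowest for Rps14 and Rplp0, at 0.11 each. As a description over 22 libraries, which share mice and scaling, the correlation of a member with the mean of the other 75 had a median of 0.880, was over 0.7 for 66 members and over 0.9 for 26. Rpl22, which mice need for the development of αβ T cells, gave r = 0.0013, and Rps14 gave 0.0637. The next lowest was Rpl24, at 0.501.

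Loading was compared first within CKO mice, where no member passed the test. The fit behind the loading values held group means and no term for the mouse. Its SE and p therefore treated the limbs of a mouse as independent. With the mouse as a replicate block no member was called in the loading comparisons either. Over all genes the calls went from 3 to 5 in CKO and from 1 to 2 in WT mice. The log2 fold change, loaded against non-loaded, had a median of -0.17 over the 76 members, against -0.012 over all genes tested, and 75 of 76 lay below 0. No member was called (edgeR quasi-likelihood test, Benjamini-Hochberg adjusted p under 0.05 over 18793 genes), none had an unadjusted p under 0.05, and DESeq2 called 0; in the whole comparison 3 genes (0.016%) were called. Of the 4 mice, 688 had 56 of 76 members higher in the loaded limb, and 693, 691 and 698 had 9, 4 and 2. The median log2 fold change was -0.22 without mice 686 and 688, -0.088 without the 3 libraries with the highest shares, and -0.063 with marrow and muscle scores (described below) as covariates; edgeR called 0 members in each.

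Rpl3, a core protein of the large subunit near its catalytic center (chromosome 15, 80077791 to 80091868, minus strand, GRCm38), had the lowest of these fold changes. It stood at 288, 281, 266 and 194 CPM in CKO loaded bones of mice 688, 691, 693 and 698, against 233, 467, 303 and 303 CPM in their non-loaded bones. Only mouse 688 was higher in the loaded limb, and the groups overlapped. The log2 fold change was -0.34 ± 0.19 (SE; edgeR adjusted p = 0.739).
Rps6, the small-subunit protein phosphorylated by the S6 kinases (chromosome 4, 86854660 to 86857412, minus strand), stood at 171, 187, 177 and 174 CPM in the same loaded bones, against 165, 255, 215 and 225 CPM in the non-loaded bones. Here too 3 of 4 mice were lower in the loaded limb (-0.28 ± 0.19, edgeR adjusted p = 0.739). The members with the smallest p were Rps16 (-0.29 ± 0.15), Rpl13a (-0.24 ± 0.13), known for a role in silencing of inflammatory mRNAs, and Rps27 (-0.24 ± 0.12), each at edgeR adjusted p = 0.739 and lower in the loaded limb of 3 of 4 mice. At the other end Rpl24 gave 0.02 ± 0.13 and Rpl22 -0.02 ± 0.11.

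In WT mice again no member passed the test. The median log2 fold change was -0.054 over the members, against -0.0080 over all genes, with 71 of 76 below 0. EdgeR and DESeq2 called 0 members, 0 had an unadjusted p under 0.05, and 1 gene of the whole comparison (0.00532%) was called by edgeR. The direction was not shared by the mice: 694, 687, 686 and 685 had 63, 58, 48 and 48 of 76 members higher in the loaded limb, and 692, 690 and 699 had 16, 3 and 1. Without mouse 699 the median log2 fold change was 0.0059, so that the sign rested on that animal. The members with the smallest p were Rpl30 (-0.12 ± 0.08), Rpl36 (-0.13 ± 0.11) and Rps26 (-0.13 ± 0.12), each at edgeR adjusted p = 0.9998. Rpl3 had its lowest, median and highest CPM at 256, 311 and 382 in WT loaded bones, against 260, 271 and 423 in WT non-loaded bones (0.03 ± 0.15, edgeR adjusted p = 0.9998). Rps6 gave 162, 174 and 243 CPM in WT loaded bones, against 143, 183 and 302 CPM in WT non-loaded bones. In both genes the ranges overlapped almost fully.

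The difference between the loading effects, CKO minus WT, was tested in the same fit and shares its libraries with the contrasts above. Its median over the members was -0.12, against 0.0028 over all genes, and 68 of 76 lay below 0. EdgeR called 0 members and 0 of all genes (0%), 0 members had an unadjusted p under 0.05, and DESeq2 called 0 members. Rpl3 (-0.38 ± 0.24), Rps27a (-0.28 ± 0.20), which is made as a fusion with ubiquitin, and Rpl13a (-0.21 ± 0.16) had the smallest p, each at edgeR adjusted p = 0.697. With marrow and muscle scores as covariates the median turned to 0.03. For no member did the limb differences of the 4 CKO mice and the 7 WT mice separate completely.

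CKO and WT bones were then compared within each limb, with 0 of all genes called (0%) in either. In loaded bones the median over the members was -0.021, against -0.042 over all genes, and 28 of 76 lay above 0. The smallest p belonged to Rpl36 (0.17 ± 0.13), Rpl24 (0.18 ± 0.11) and Rpl3 (-0.25 ± 0.17), with edgeR adjusted p from 0.606 to 0.639. In non-loaded bones 72 of 76 members lay above 0, with a median of 0.11, against -0.0030 over all genes. Rpl39 (0.20 ± 0.14), which lines the exit tunnel and lies on the X, Rpl26 (0.15 ± 0.10) and Rps2 (0.15 ± 0.11) had the smallest p, each at edgeR adjusted p = 0.976. By size of fold change Rps6 came next after Rpl39, at 0.18 ± 0.17, while Rps14 (-0.04 ± 0.10) and Rps28 (-0.02 ± 0.12) were lowest. EdgeR called 0 members in both limbs, with 0 at an unadjusted p under 0.05, and DESeq2 called 0. In non-loaded bones the median ran from 0.02 without mouse 691 to 0.19 without mouse 699.

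**Figure D2:**
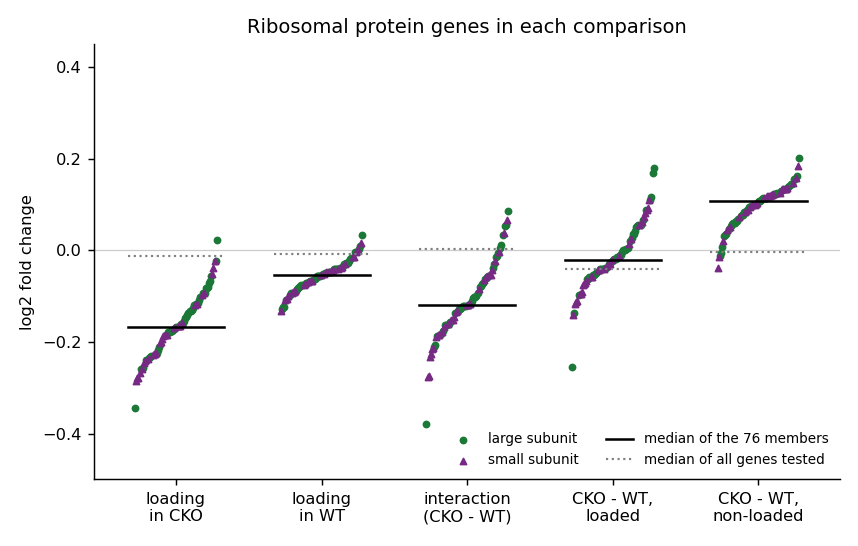
Log2 fold changes of the 76 ribosomal protein genes in the 5 comparisons (y axis), ordered by value within each, with circles for the large and triangles for the small subunit. The solid line is the median of the members and the dotted line that of all genes tested; no point passed the test, and the median is farthest from that of all genes for loading in CKO (-0.17 against -0.012).

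Amounts of marrow and muscle differed between the bones. Erythroid (15 of 16 genes measured), neutrophil (14 of 14) and B cell (12 of 12) markers were combined in a marrow score, the mean of the 3 list means of centred log2 CPM, and 20 muscle genes in a muscle score. No marker used was at 0 in any library. Summed neutrophil markers lay between 3141 and 5122 CPM in CKO loaded, 3863 and 12113 CPM in CKO non-loaded, 2825 and 9368 CPM in WT loaded and 2881 and 18892 CPM in WT non-loaded bones. Summed muscle markers lay between 123764 and 197855 CPM, 24784 and 171621 CPM, 52711 and 167611 CPM, and 44295 and 154728 CPM in the same groups. Per mouse, the marrow score of the loaded minus the non-loaded limb averaged -0.45 ± 0.94 in CKO (SD, n = 4) and 0.23 ± 0.72 in WT mice (n = 7). The mean over the members differed by -0.16 ± 0.15 in CKO and -0.050 ± 0.17 in WT mice, and the part that marrow or muscle has in this was not tested.

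The relation to marrow content was fitted as the log2 change of a gene per unit of marrow score beside the 4 group means. Over the 22 libraries 57 of 76 members rose with it (edgeR adjusted p under 0.05), where 25.1% of all genes did, and 1, Rpl22, fell, where 27% of all genes did. The median slope was 0.20, against -0.032 over all genes, with 0.19 for the large and 0.23 for the small subunit. Rpl3 was steepest at 0.41 ± 0.07 (SE; edgeR adjusted p = 3.3e-05), followed by Rps6 at 0.38 ± 0.07 (0.00013), and Rps9 (0.35 ± 0.05) and Rps10 (0.30 ± 0.05) had adjusted p of 3.2e-05 and 3.7e-05. Without mice 686 and 688, 40 were called higher (21.2% of all genes). With the mouse as a replicate block 32 members were called higher (23.3% of all genes) and none lower, at a median of 0.17.

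The calls for this relation depended on 3 libraries at the top of the marrow score. The CKO non-loaded bone of mouse 691, the WT non-loaded bone of mouse 699 and the WT loaded bone of mouse 694 had marrow scores from 0.92 to 1.10, and the other 19 libraries had none above 0.31. The same 3 had the highest mean log2 CPM over the members, 7.61 or more, against at most 7.55 elsewhere. Without them edgeR called 0 of 76 members higher, 2 had an unadjusted p under 0.05, and the median slope was 0.022. This cut is made on the score itself and narrows its range. Calls higher over all genes fell with it too, from 25.1% to 3.53%, so lost calls cannot be told apart from lost range. Over all 22 libraries the mean over the members and the marrow score gave Pearson r = 0.715 and Spearman rho = 0.518. Among the 19 libraries they gave r = 0.255 and rho = 0.251, as a description over libraries of which most come in pairs from a mouse. Between limbs, 4 mice had a loaded minus non-loaded marrow difference over 1 in size, and the members differed in the same direction: 691 (-1.31 in marrow score, -0.28 in the members), 698 (-1.06 and -0.25), 699 (-1.08 and -0.34) and 694 (1.21 and 0.13). The members' difference in 694 was no larger in size than in 690 (0.35 in marrow score, -0.16 in the members), 692 (0.53 and -0.14) and 693 (-0.17 and -0.16), and in 690 and 692 the measures had opposite signs. Over all 11 mice the limb differences of members and marrow gave r = 0.812 and rho = 0.709. In the 7 mice with smaller marrow differences r was 0.125 and rho -0.107, in a subset cut on the marrow difference itself and so of narrow range.

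**Figure D3:**
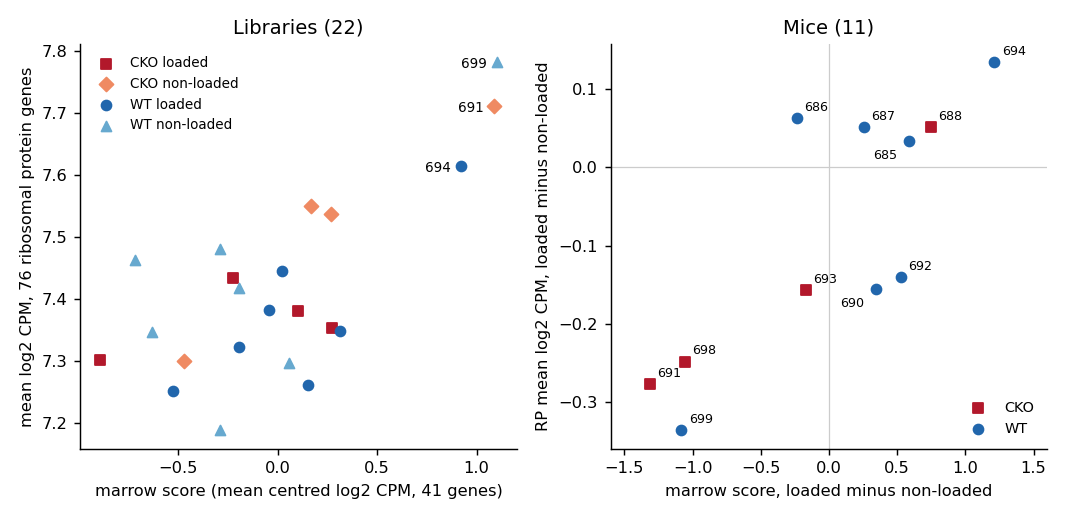
Left, mean log2 CPM of the 76 ribosomal protein genes (y axis) against marrow score (x axis) for 22 libraries, with colors and shapes for the 4 groups; the bones of 699, 691 and 694 stand apart at the upper right. Right, the loaded minus non-loaded difference of both measures for 11 mice. Over these 11 mice r was 0.812, and among the 7 mice with marrow differences under 1 in size it was 0.125.

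Within the genotypes, with separate fits chosen after the data were seen, 13 members were called higher with marrow in the 8 CKO libraries (16.9% of all genes, median 0.19) and 37 in the 14 WT libraries (18.6%, median 0.21). The choice of markers mattered as well. With B cell genes alone as the score edgeR called 0 members higher (4.07% of all genes, median 0.036), with 3 at an unadjusted p under 0.05. Erythroid genes alone gave 56 (21% of all genes) and neutrophil genes alone 59 (24.7%).

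**Figure D4:**
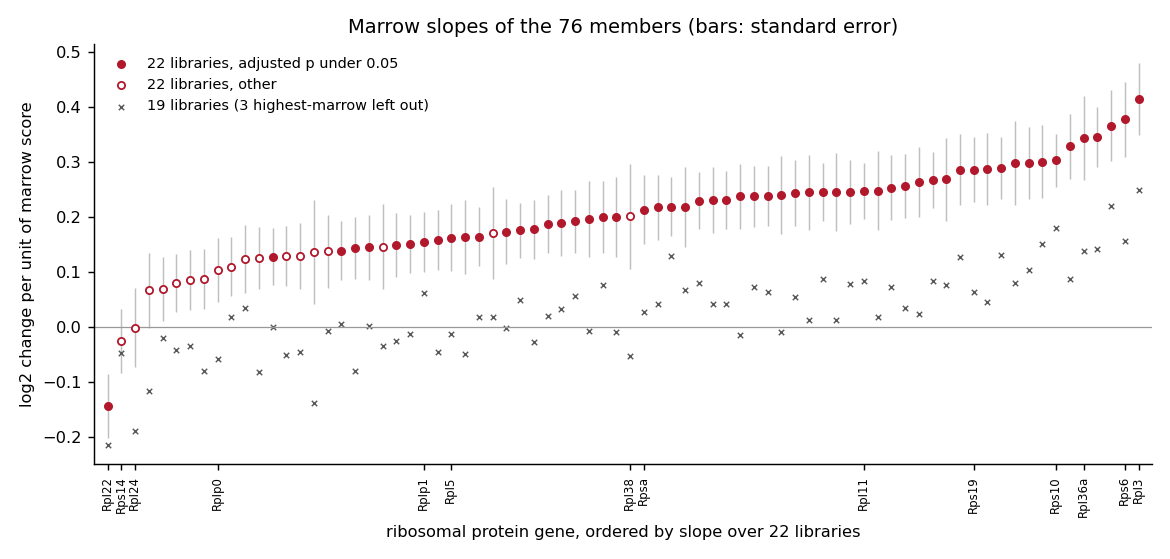
Log2 change per unit of marrow score (y axis) for the 76 members (x axis), ordered by value, with some members of the text labelled. Circles give the fit over 22 libraries with its SE, filled where the adjusted p was under 0.05, and crosses the fit over the 19 libraries left without the 3 of highest marrow score; most crosses lie near 0, and Rpl22 is lowest in both.

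Of the 3 stalk genes 2 passed in the fit over 22 libraries: Rplp1 (0.15 ± 0.05, edgeR adjusted p = 0.0208) and Rplp2 (0.24 ± 0.07, 0.00489) rose with marrow, and Rplp0 gave 0.10 ± 0.06 (0.143). Rplp0, often used as a reference gene, had one of the 3 lowest SDs. Rpl5 (0.16 ± 0.06) and Rpl11 (0.25 ± 0.05), which with the 5S rRNA can bind Mdm2, the ubiquitin ligase of p53, were both called. Rps19 (0.29 ± 0.06), mutated in Diamond-Blackfan anemia, Rps20 (0.16 ± 0.05), Rps3 (0.25 ± 0.05), which has been linked to DNA repair, and Rpsa, also known as a laminin receptor (0.21 ± 0.06), were called. Of the 4 X-linked members Rpl36a (0.34 ± 0.08), Rpl39 (0.25 ± 0.07) and Rps4x (0.17 ± 0.06) were called, and Rpl10 was not (0.13 ± 0.06, edgeR adjusted p = 0.0775). Among small proteins Rpl41 (0.30 ± 0.07) and Rps29 (0.27 ± 0.08) were called and Rpl38 was not (0.20 ± 0.10, 0.082), though its slope was no smaller than that of many called members. Each of these slopes missed the threshold without the 3 libraries. In the fit over 22 libraries most members and 25.1% of all genes rose. With the muscle score beside the marrow score Rps12 alone of the members was called higher with marrow.

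Rpl22 was the only member called lower with marrow content over 22 libraries (chromosome 4, 152325742 to 152334071, plus strand). It stood at 63.7, 64.9, 64.3 and 70.4 CPM in CKO loaded bones of mice 688, 691, 693 and 698 and at 68.2, 57.6, 68.9 and 72.9 CPM in their non-loaded bones. Its lowest, median and highest CPM were 56.7, 61.6 and 70.7 in WT loaded, against 57.3, 58.6 and 77.7 in WT non-loaded bones. All groups overlapped. The marrow slope was -0.14 ± 0.06 (edgeR adjusted p = 0.0411; 0.03 without TMM, where the median of all genes was 0.12) and the slope on muscle score 0.15 ± 0.04 (0.0025); without the 3 libraries these were -0.21 ± 0.08 (0.21) and 0.33 ± 0.07 (0.0014). Rpl22l1, its paralogue, gave a marrow slope of 0.12 ± 0.08 (0.246). With the mouse as a replicate block Rpl22 was not called lower with marrow. Rps14 (-0.02 ± 0.06, edgeR adjusted p = 0.742) and Rpl24 (-0.0014 ± 0.072, 0.989) did not rise with marrow over 22 libraries either.

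Muscle content ran opposite to marrow content (r = -0.796 over the 22 libraries and -0.482 over the 19), so the slopes are not independent. Over 22 libraries 46 members fell with the muscle score (26.7% of all genes did) and 1, Rpl22, rose (26.7%), at a median of -0.15, against 0.0062 over all genes; 15 fell with the mouse as a replicate block (22.7% of all genes did). With both scores in the fit 1 member rose with marrow (3.34% of all genes did), Rps12, named after its values were seen (0.44 ± 0.11, edgeR adjusted p = 0.0237), and the median was 0.17. In that fit 1 member fell with muscle (2.5% of all genes did), Rpl3 (-0.26 ± 0.06, 0.00606), and the median was -0.025. Without the 3 libraries 1 member fell with muscle, again Rpl3 (5.03% of all genes did), and 2 rose, Rpl22 and Rpl24 (17% of all genes did).

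Rpl3 and its muscle paralogue Rpl3l moved in opposite directions with muscle content. Rpl3l is the striated-muscle form that takes the place of Rpl3 in the ribosome. It stood at 106, 163, 138 and 231 CPM in CKO loaded bones of mice 688, 691, 693 and 698, against 158, 28.5, 127 and 111 CPM in their non-loaded bones. In WT loaded bones its lowest and highest were 59.8 and 126 CPM, against 47.9 and 153 CPM in WT non-loaded bones. The CKO non-loaded bone of mouse 691, with the lowest muscle score, had the lowest Rpl3l and the highest Rpl3 of all libraries, and the CKO loaded bone of mouse 698, with the highest muscle score, had the highest Rpl3l and the lowest Rpl3.
Per unit of muscle score Rpl3 changed by -0.36 ± 0.04 (edgeR adjusted p = 1.8e-07) and Rpl3l by 0.93 ± 0.05 (4.3e-12). Without the 3 libraries these were -0.33 ± 0.07 (0.0016) and 1.10 ± 0.09 (1.4e-07). Rpl3 was called lower in every alternative fit of the muscle slope that was run, with slopes from -0.53 to -0.26. As a description, among the 19 libraries Rpl3 gave r = -0.838 and Rpl3l r = 0.964 with the muscle score, and r = -0.789 with each other. Reads shared by the pair are divided by estimate, and the part this has in their opposite course was not tested. Per kb, Rpl3 averaged 190 ± 32.0 and Rpl3l 116 ± 38.4 CPM per kb in CKO loaded bones, 242 ± 73.4 and 77.3 ± 40.3 in CKO non-loaded bones, 227 ± 29.5 and 71.6 ± 15.6 in WT loaded bones and 222 ± 43.0 and 75.7 ± 31.5 in WT non-loaded bones.

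**Figure D5:**
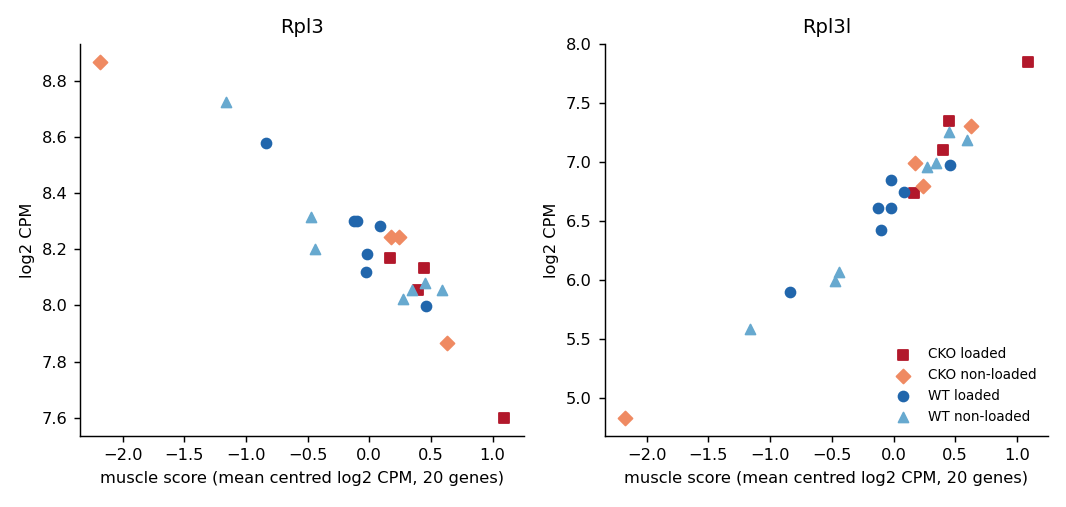
Log2 CPM of Rpl3 (left) and of its muscle paralogue Rpl3l (right) on the y axes against the muscle score on the x axes, 1 point for each of 22 libraries, with colors and shapes for the 4 groups. Rpl3 is lower and Rpl3l higher in bones with a higher muscle score, and the slopes were -0.36 and 0.93 per unit.

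Ribosomal proteins whose symbols the rule does not cover were read in the same fit over 22 libraries. Fau, made as a fusion with a ubiquitin-like protein (0.36 ± 0.06, edgeR adjusted p = 5.4e-05), and Rps3a1 (0.19 ± 0.05, 0.00437) rose with marrow, and Rps27rt gave 0.13 ± 0.15. Without the 3 libraries Fau (0.17 ± 0.10, edgeR adjusted p = 0.337) and Rps3a1 (0.04 ± 0.09, 0.834) missed the threshold. Of 8 paralogues and copies listed, Rpl7l1 rose (0.19 ± 0.07, 0.0191) and Rpl3l fell (-0.92 ± 0.17, 0.00018); Rpl39l, a form found in the testis, lay between 0.311 and 0.96 CPM in CKO and between 0.174 and 0.973 CPM in WT libraries.

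Other lists of the translation machinery were counted in the same fit over 22 libraries, in which 25.1% of all genes rose and 27% fell. Of 18 translation factors and related genes listed for the same terminal motif, 8 rose with marrow and 2 fell. Those that rose included Pabpc1, the poly(A)-binding protein (0.77 ± 0.08, edgeR adjusted p = 2.0e-07), and Hnrnpa1 (0.31 ± 0.06, 0.00019). The starts of these 18 genes were not read singly here. Of 30 ribosome assembly genes 10 rose, a share near that of all genes, and 1 fell, with Fbl, the methyltransferase of ribosomal RNA (0.50 ± 0.07, 2.0e-05), and Ubtf, an RNA polymerase I factor (0.30 ± 0.05, 8.5e-05), at the smallest p. Of 14 regulators of the motif and of ribosome synthesis 2 rose and 8 fell. Tsc1, a brake on mTOR (-0.49 ± 0.06, 4.4e-06), and Deptor, an inhibitor of mTOR (-0.47 ± 0.08, 3.7e-05), fell at the smallest p. Mtor itself (-0.21 ± 0.05, 0.00163), Rptor (-0.18 ± 0.07, 0.0337) and Rheb (-0.11 ± 0.04, 0.0323) fell as well, so the genes that fell were not inhibitors of mTOR only. On the muscle score, which ran opposite to marrow, Tsc1 (0.39 ± 0.04, edgeR adjusted p = 3.0e-07) and Deptor (0.38 ± 0.05, 2.4e-06) rose. Mtor (0.13 ± 0.04, 0.0181) and Rheb (0.12 ± 0.03, 0.00122) rose with it too, and Rptor missed the threshold (0.09 ± 0.06, 0.17). The part of muscle in these marrow slopes was not tested. The 78 mitochondrial ribosomal protein genes went the other way, with 1 higher and 42 lower at a median of -0.18, and all 18 cell cycle genes rose at a median of 0.98. Without the 3 libraries 3.53% of all genes rose and 3.98% fell. Of the translation genes 1 then rose (Pabpc1, 0.60 ± 0.15, edgeR adjusted p = 0.021) and 1 fell (Eif3e, a subunit of an initiation factor, -0.34 ± 0.09, 0.032), and of the assembly genes edgeR called 0, with 3 at an unadjusted p under 0.05. Of the regulators 0 rose and 1 fell, Tsc1 (-0.36 ± 0.10, 0.0346), while Deptor missed the threshold (-0.31 ± 0.12, 0.105). Of the mitochondrial ribosomal protein genes 0 rose and 3 of 78 fell, at a median of -0.27, and 15 of 18 cell cycle genes rose.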

How the data were processed

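RNA from the middle part of 22 ulnae was made into stranded total RNA libraries from 4 ng of RNA with a SMARTer kit, per the labels' protocols. The authors deposited 1 table of expected counts per library for 25471 genes; the submitters' processing notes name STAR, RSEM and GRCm38, with no versions, and the annotation is not given in the sources used here. Expected counts were rounded and fitted with edgeR 4.0.16 in R 4.3.3 (filterByExpr, TMM, robust quasi-likelihood test, 1 mean for each of 4 groups, 18793 genes, 18 residual degrees of freedom), with Benjamini-Hochberg adjustment over all genes tested at 0.05 and SE taken as the log2 value over the root of F. Slopes on the marrow score (41 genes) or the muscle score (20 genes) were fitted beside the group means. Log2 CPM used a prior count of 2.

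Limbs were paired by mouse number for the limb differences and the fit with a replicate block, and not in the main fit. The limbs of a pair come from the same animal. Their deviations from group means gave r from -0.256 to 0.415 over genes, above 0.1 in 7 of 11 mice. Over the members r ran from -0.257 in mouse 694 to 0.742 in mouse 699. The 54 pairs of libraries within groups differed beyond sampling noise (chi-square per gene at least 27.4). The members and all gene lists were chosen with earlier results of these data known. Members named in the text were chosen for their role (20 genes) or by rule: the 3 smallest p and the 2 highest and lowest values per comparison, and the extremes of level per kb and of SD, 37 in all. Symbols, positions and lengths came from GENCODE M21, which matched 25428 IDs. Alternatives were DESeq2 1.42.0, limma 3.58.1, other scalings, filters, covariates, scores and libraries left out. The scripts were tested on simulated data. Library totals limit precision by counting error only. Some genes are not reported here by name.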

Additional observations from a re-analysis of the deposited data

Results flagged for a closer look

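In 13 of 94 groups of values 1 library stood far from the others of its group by Dixon's test. Chance flags about 1 in 20 independent groups, but these groups reuse the same libraries over genes that move together, so the count cannot be read against it, and 12 of the 13 come from 2 libraries. In WT non-loaded bones it was mouse 699 each time: the share of counts in ribosomal protein genes was 2.07%, against 1.19% to 1.57% in the other 6. The same library had 423 CPM of Rpl3 (others 260 to 318), 159 CPM of Rpl11 (105 to 119), 80.8 CPM of Rpl38 (44.5 to 56.4), 299.7 CPM of Rpl41 (194 to 218), 392 CPM of Rps3 (278 to 304), 302 CPM of Rps6 (143 to 184), 247 CPM of Rps19 (154 to 187) and 209 CPM of Rps27a (106 to 139). In WT loaded bones it was mouse 694, with 419.5 CPM of Rplp1 (323 to 356), 229 CPM of Rplp2 (154 to 182) and 142 CPM of Rpl11 (98.2 to 116). In CKO loaded bones Rplp0 stood at 645 CPM in mouse 691, against 593 to 602 CPM in the other 3. The libraries of 699 and 694 are among the 3 with the highest marrow scores, and the part of marrow in these values was not tested.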

How the results depend on the processing

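For the 5 comparisons of loading and genotype 0 members were called under any alternative run. Leaving out 1 mouse at a time moved the median log2 change over the members between -0.21 and -0.12 for loading in CKO, -0.095 and 0.0059 for loading in WT, -0.18 and -0.055 for the interaction, -0.044 and 0.023 for genotype in loaded and 0.021 and 0.19 for genotype in non-loaded bones. It moved the members called with marrow between 31 and 61 higher and between 0 and 1 lower. Over all genes the calls with marrow in either direction ran from 7292 without mouse 699 to 10032 without mouse 692, against 9788 with all mice.

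With the mouse as a replicate block, the paired fit, 32 members rose and 0 fell with marrow, and 15 fell with muscle. As in the main fit, it called no member in the loading comparisons. Leaving out mice 691 and 699 lowered the calls over all genes too, in either direction, from 9788 to 3519 with marrow and from 10050 to 5188 with muscle. Members rising with marrow numbered 4 without mice 691 and 699, 0 with B cell genes as the score, 1 with the muscle score beside it, 0 without the 3 libraries of highest marrow score, 13 in CKO and 37 in WT libraries. The 1 member that fell with marrow became 0 in each of these, under RLE scaling, with no filter, without mice 686 and 688, with erythroid or neutrophil genes as the score and without TMM. The median marrow slope was 0.036 with B cell genes, 0.33 without TMM and 0.022 without the 3 libraries. The median muscle slope was -0.056 without mice 691 and 699 (3 lower), -0.025 with marrow beside it (1 lower, 0 higher), -0.29 without TMM (0 higher) and 0.033 without the 3 libraries (1 lower, 2 higher). Without TMM the median of all genes moved to 0.12 for the marrow and -0.14 for the muscle slope, and to -0.13 for loading in CKO, -0.15 for the interaction and -0.12 for genotype in loaded bones.

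Marrow slopes turned sign without the 3 libraries for Rplp0 (-0.059), Rpl4 (-0.048), Rpl5 (-0.012), Rpl10 (-0.045), Rpl38 (-0.052), Rps4x (-0.0014) and Rps20 (-0.046). With B cell genes they did for Rplp0 (-0.019), Rpsa (-0.014), Rpl4 (-0.047), Rpl10 (-0.044) and Rpl39 (-0.0017). Rplp0 gave -0.00053 without mice 691 and 699, Rpl38 -0.058 in CKO libraries, and Rpl22 0.032 with muscle beside it and 0.032 without TMM. The cause was not tested. Of the other single-member values 822 kept direction and side of the threshold, 149 lost the call and 9 gained one. Fits without TMM, without the 3 libraries, within a genotype and with pseudogene counts added were chosen after seeing the data. With pseudogene counts added 58 members were higher with marrow, and 9783 of all genes were called in either direction.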
